A study of Homo sapiens with 2 samples.

Results

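The kinases, cyclins, kinesins and checkpoint proteins that carry a cell through mitosis were examined as a list of 36 named genes, drawn up with earlier results of these data known, among the 62700 genes of the gene table. They were measured in TCam-2, an established human line grown from a seminoma (a germ cell tumour of the testis), transduced with DDX53-FLAG to overexpress the RNA helicase gene DDX53. The study's controls, cells with GFP-FLAG and untransduced cells, were not analysed here, so both libraries carry the DDX53 construct and no effect of DDX53 was computed. The labels do not name the promoter of the construct, and nothing says that the 2 replicate libraries came from separate cultures. All values below are therefore levels, differences between the 2 libraries, and features of the genes themselves.

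The libraries held 24137664 and 22198929 reads in genes. All 8 markers of seminoma and germ cells were detected (at least 1 CPM, reads scaled to the library's total in genes, in both libraries), with a summed 5139 and 5117 CPM. Of 10 markers of other cells of the testis or of culture, SOX9, AMH, GATA4 and COL1A1 were detected, and the list summed to 65.1 and 62.3 CPM. SOX9, a marker of Sertoli cells, was lower in replicate 2, with 7.79 and 4.68 CPM (edgeR exact binomial test, log2 difference of -0.63, adjusted p of 0.00063). Of the 6 genes of this list that were tested, only SOX9 had an adjusted p under 0.05 (16.7%, against 13.1% of all genes tested). AMH, GATA4 and COL1A1 did not. Of the 8 markers of seminoma and germ cells, 4 did (50%), 2 higher and 2 lower in replicate 2. The part of these markers in the differences between the libraries given below was not tested. PTPRC, the defining marker of white blood cells, was at 0 reads in each library, and a count of 0 allows up to 0.124 and 0.135 CPM.

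Mitosis is started by CDK1 bound to cyclins A and B. Until then the kinases WEE1 and PKMYT1 hold CDK1 inactive, and the CDC25 phosphatases release it. Polo and Aurora kinases then build the spindle, the spindle checkpoint waits until every chromosome is attached, and CDC20 with the anaphase-promoting complex ends mitosis by having cyclin B and securin degraded. Most of these genes are transcribed mainly late in the cell cycle. Their promoters are known for CCAAT boxes, bound by the factor NF-Y, and for the cell cycle genes homology region (CHR), bound by complexes that hold the LIN proteins. Cells of the germ line have counterparts of their own, among them CCNA1, CCNB3 and AURKC.

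Promoter sequence was read first, because these 2 motifs are what the list is best known to share. The RefSeq promoter table (GRCh38.p14; windows of 300 bases, 250 before to 50 after each start site) held 28 of the 36 genes, in 38 windows. CHR was searched as TTTGAA or TTCGAA and the CCAAT box as CCAAT, each on both strands, so that TTCAAA and ATTGG also count. No match of 1 motif is also a match of the other, and a CHR match and a CCAAT match can share at most 1 end base. A CHR match was found in 18 of the 28 genes (64.3%), against 15.1% of the 10415 detected genes with a window and 19.5% of all 27305 genes in the table. CCAAT was found in 23 of the 28 genes (82.1%), against 43.1% of the detected genes. Both stood in 1 window in 16 genes (57.1%), against 6.49% of the detected genes. These are counts of letters in windows, and a match is not a measured binding site.

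The 150 bases before the start site are shown for 4 genes with both motifs and for 3 cyclin genes that differ in them, with CHR and CCAAT matches in capitals. CCNB2 is at chr15:59104996-59105145 (plus strand), PLK1 at chr16:23678739-23678888 (plus), CDC20 at chr1:43358831-43358980 (plus), KIF18A at chr11:28108157-28108306 (minus), CCNB1 at chr5:69167000-69167149 (plus), CCNA1 at chr13:36431805-36431954 (plus) and CCNB3 at chrX:50204615-50204764 (plus).
CCNB2: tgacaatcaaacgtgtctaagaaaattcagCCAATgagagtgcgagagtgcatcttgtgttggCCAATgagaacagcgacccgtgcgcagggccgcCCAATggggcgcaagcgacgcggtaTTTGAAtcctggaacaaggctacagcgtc
PLK1: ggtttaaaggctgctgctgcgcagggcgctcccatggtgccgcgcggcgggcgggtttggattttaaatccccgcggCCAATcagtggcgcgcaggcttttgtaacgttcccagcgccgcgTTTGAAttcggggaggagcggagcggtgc
CDC20: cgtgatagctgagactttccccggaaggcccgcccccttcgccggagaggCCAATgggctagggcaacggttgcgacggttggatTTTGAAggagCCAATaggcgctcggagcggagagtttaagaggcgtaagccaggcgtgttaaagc
KIF18A: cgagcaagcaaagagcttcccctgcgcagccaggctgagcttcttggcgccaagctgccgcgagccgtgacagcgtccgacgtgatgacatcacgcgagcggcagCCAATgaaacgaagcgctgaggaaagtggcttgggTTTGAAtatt
CCNB1: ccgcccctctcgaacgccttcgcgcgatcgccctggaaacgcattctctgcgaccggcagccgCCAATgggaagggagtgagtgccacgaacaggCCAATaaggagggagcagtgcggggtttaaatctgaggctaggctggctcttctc
CCNA1: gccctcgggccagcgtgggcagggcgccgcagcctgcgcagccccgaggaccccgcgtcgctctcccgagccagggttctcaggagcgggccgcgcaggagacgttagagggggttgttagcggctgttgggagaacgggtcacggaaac
CCNB3: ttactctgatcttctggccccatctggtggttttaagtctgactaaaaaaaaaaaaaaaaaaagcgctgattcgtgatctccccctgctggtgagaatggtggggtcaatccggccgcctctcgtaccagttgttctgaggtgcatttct

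In CCNB2, CCAAT matches began at positions -120, -87 and -54 from the start site and the CHR match at -29. Another CCAAT match of CCNB2 lay upstream of the bases shown, at -244. PLK1 also had its CHR match at -29, after a CCAAT match at -73. CDC20 had CCAAT at -100 and -55 with CHR between them at -65 and another CHR match upstream of the bases shown, at -178, and KIF18A had CCAAT at -45 and CHR at -10. CCNB1, the highest cyclin of the list, had CCAAT at -87 and -55 and no CHR match, and the windows of CCNA1 and CCNB3 held neither motif. A CHR match that began 20 to 50 bases after a CCAAT match was found in 9 of the 28 genes (32.1%): CCNB2, CDC20, CDC25B, CDK1, CENPF, KIF11, KIF18A, PLK1 and TOP2A. The share was 1.30% of the detected genes with a window, and this spacing was chosen after the positions were seen. Among the 28 genes, those with no CHR match included high and low ones: besides CCNA1, CCNB3 and AURKC, they were CCNA2, CCNB1, AURKB, CDC25A, KIF20A, KIF2C and CENPE. AURKA, BUB3, TTK, WEE1, PKMYT1, TPX2, BIRC5 and UBE2C, the highest gene of the list, had no window and were not searched. Only TTTGAA and TTCGAA were searched, so a missing match does not show that a gene lacks a CHR.

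**Figure D1:**
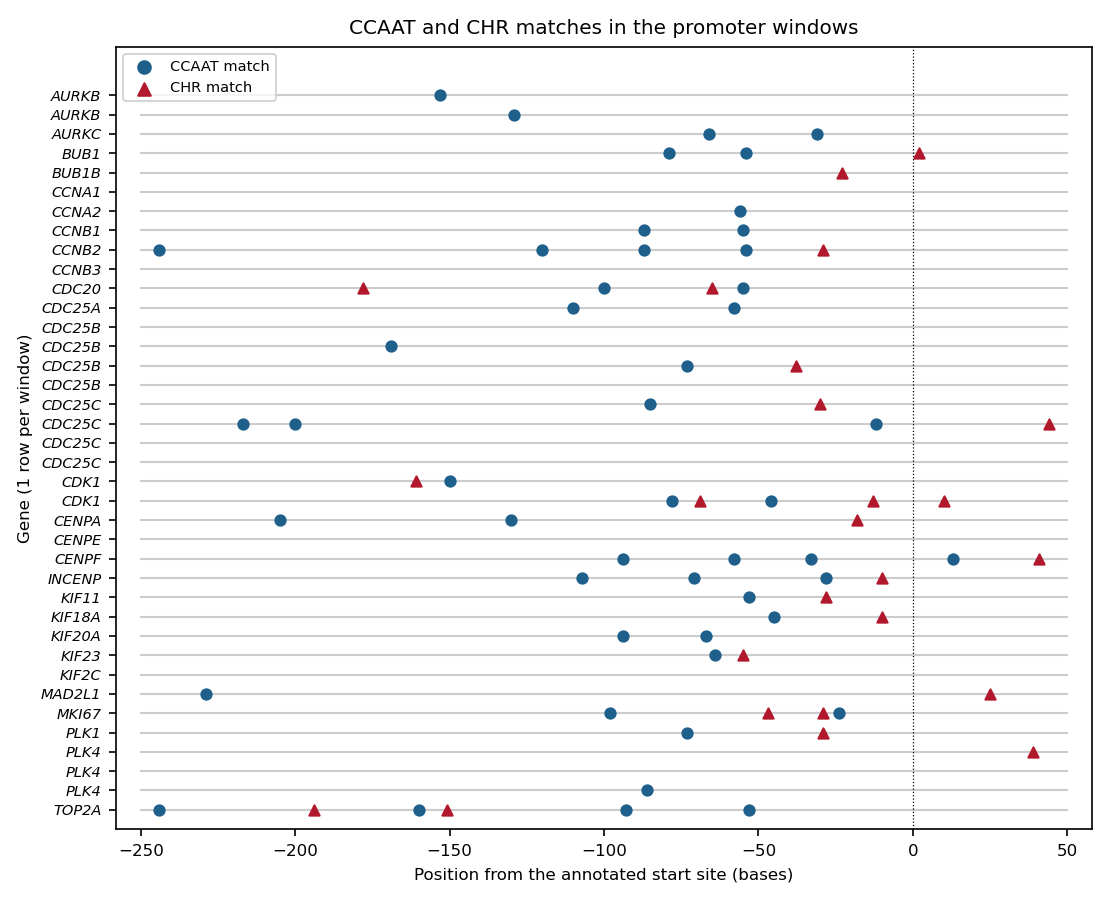
Positions of CCAAT matches (circles) and CHR matches (triangles) in the 38 promoter windows of 28 mitotic genes, 1 row per window, in bases from the annotated start site (dotted line). Most CHR matches lie close to the start site with CCAAT matches upstream, as at -29 and -73 in PLK1, while the rows of CCNA1, CCNB3, CENPE and KIF2C, and some further windows of CDC25B, CDC25C and PLK4, are empty.

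Of the 36 genes, 35 were detected, against 21.7% of all genes in the table. The table also holds pseudogenes, while the 36 genes are protein coding, so these shares are of unlike sets. Levels between genes were compared per length, as TPM (a transcript abundance scaled for length and library size) summed over the transcripts of each gene. The median of the 36 genes was 61.4 TPM, against 14.1 TPM over 13011 genes that reached 1 TPM in each library. Above that median lay 31 of the 36 genes, and 7 lay above 113 TPM, the level that 10% of those genes exceeded. In RNA from whole cultures, a smaller share of dividing cells and less RNA per dividing cell cannot be told apart.

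Among the cyclins, CCNB1 (ENSG00000134057, chr5:69167010-69178245 in GENCODE 29 on GRCh38), the main cyclin of mitotic entry, had 276 and 282 TPM in replicates 1 and 2. CCNB2 (chr15:59105078-59125045), a cyclin found at the Golgi, had 107 and 111 TPM. CCNA2 (chr4:121816444-121823933), which acts from S phase to early mitosis, had 82.7 and 87.7 TPM. CDK1 (chr10:60778331-60794852), their common kinase, had 141 and 150 TPM. The 2 libraries gave the same order for these 4 genes, with no overlap between them.

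The cyclins known from the germ line were far lower. CCNB3 (chrX:50202713-50351910), a cyclin known from meiosis, had 5.10 and 5.00 TPM, from 459 and 419 reads. CCNA1 (chr13:36431520-36442882), the cyclin A of male meiosis, had 1.31 and 1.71 TPM, from 41 and 45 reads. CCNA1 was thus at 1.70 CPM (1.25 to 2.30, the 95% Wilson interval) and at 2.03 CPM (1.52 to 2.71), which overlap. CCNB1 exceeded CCNB3 by 55.3 ± 1.49-fold and CCNB2 by 2.56 ± 0.0460-fold (SD of the TPM ratio, n = 2 each). CCNA2 exceeded CCNA1 by 57.0 ± 8.28-fold (SD, n = 2). With CPM per kilobase of merged exons in place of TPM, the CCNB1 to CCNB3 ratio was 35.1 and the CCNB1 to CCNA2 ratio 2.14, against 3.28 ± 0.0926 (SD, n = 2) by TPM.

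Of the phosphatases that activate CDK1, CDC25B, which acts at mitotic entry, was the highest at 94.9 and 94.1 TPM. CDC25A, which also acts at the start of S phase, had 22.9 and 25.1 TPM, and CDC25C had 18.3 and 19.9 TPM. The libraries of the 3 genes did not overlap. CDC25B exceeded CDC25A by 3.95 ± 0.272-fold and CDC25C by 4.96 ± 0.334-fold (SD, n = 2 each). The inhibitory kinases lay between, PKMYT1 with 65.2 and 64.0 TPM and WEE1 with 46.5 and 43.2 TPM. Of the exonic length of PKMYT1, 31.6% overlaps genes on the opposite strand, so its reads are uncertain if the counting did not use strand.

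PLK1, the Polo kinase of spindle and centrosome maturation, had 145 and 151 TPM. PLK4, which starts centriole duplication, had 16.5 and 15.97 TPM, and the PLK1 to PLK4 ratio was 9.15 ± 0.459 (SD, n = 2). AURKA, the Aurora kinase of spindle poles, had 133 TPM in both libraries. AURKB, the enzyme of the chromosomal passenger complex, had 68.7 and 70.6 TPM, so that AURKA exceeded it by 1.91 ± 0.0313-fold (SD, n = 2). Of the partners of AURKB, BIRC5 (survivin) had 82.7 and 86.1 TPM and the scaffold INCENP had 30.3 and 29.7 TPM.

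AURKC (chr19:57230802-57235548), the Aurora kinase of meiosis, was the only gene of the list that was not detected. Its 19 reads in replicate 1 gave 0.787 CPM (0.504 to 1.23, the 95% Wilson interval), and its 10 reads in replicate 2 gave 0.450 CPM (0.245 to 0.829). The intervals of the libraries overlapped. By TPM it was at 0.827 and 0.683, and AURKA exceeded it by 178 ± 24.3-fold (SD, n = 2). AURKC resembles AURKB in sequence, so that these few reads are uncertain.

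Of the checkpoint genes, BUB3 had 100.5 and 102 TPM, MAD2L1, whose protein holds back CDC20, had 60.9 and 55.4 TPM, and the kinase BUB1 had 55.9 and 54.9 TPM. BUB1B (BubR1) had 45.3 and 44.0 TPM and the kinase TTK (MPS1) had 42.7 and 39.4 TPM. MAD2L1 and BUB1 overlapped, while BUB1B lay above TTK in both libraries. The order within these genes depends on the measure of length: by CPM per kilobase of merged exons, BUB3 moved from rank 10 to rank 22 of 36, below BUB1, BUB1B and TTK. The genes of anaphase entry stood higher. CDC20 had 256 and 254 TPM, and UBE2C (chr20:45812576-45816957), the ubiquitin-conjugating enzyme of the anaphase-promoting complex, had 742 and 696 TPM and was the highest of the list by either measure of length. A further 54 and 36 reads fell on the pseudogene UBE2CP5, against 8200 and 7075 on UBE2C. Of the 17 pseudogenes named after genes of the list, 11 had no read.

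Among the motors, KIF20A and KIF23, which act in cytokinesis, had 116 and 102 TPM and 49.6 and 48.7 TPM. KIF2C, which takes microtubules apart at centromeres, had 76.6 and 80.6 TPM. KIF18A, which limits chromosome swings, had 11.2 and 13.4 TPM, and CENPE, the kinesin of kinetochores, had 9.14 and 9.03 TPM. KIF11, the motor that pushes spindle poles apart, had 18.1 and 16.2 TPM. Its TPM is uncertain, because its log2 ratio of reads to the number predicted from TPM and transcript length was 1.30 and 1.36, the only ratio of the list beyond 2-fold, and only 1 of its transcripts was matched. By CPM per kilobase of merged exons KIF11 moved from rank 30 to rank 16 of 36. TPX2, which activates AURKA on the spindle, had 142 and 146 TPM. The centromeric histone CENPA had 78.5 and 82.6 TPM.

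TOP2A, the topoisomerase that untangles sister DNA, had 87.1 and 86.9 TPM, and MKI67, which encodes the proliferation marker Ki-67, had 36.3 and 24.5 TPM. In the order by mean TPM, 24 of the 35 neighbouring pairs were separate, both libraries of the higher gene lying above both of the lower. The 11 pairs that overlapped were PLK1 and CDK1, CDK1 and TPX2, KIF20A and CCNB2, TOP2A and CCNA2, CCNA2 and BIRC5, CENPA and KIF2C, MAD2L1 and BUB1, WEE1 and BUB1B, CENPF and MKI67, MKI67 and INCENP, and KIF11 and PLK4. With CPM per kilobase, 7 of the 10 highest genes stayed among the 10 highest, and CCNA2, CDC25B and TOP2A took the places of CDK1, CCNB2 and BUB3.

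**Figure D2:**
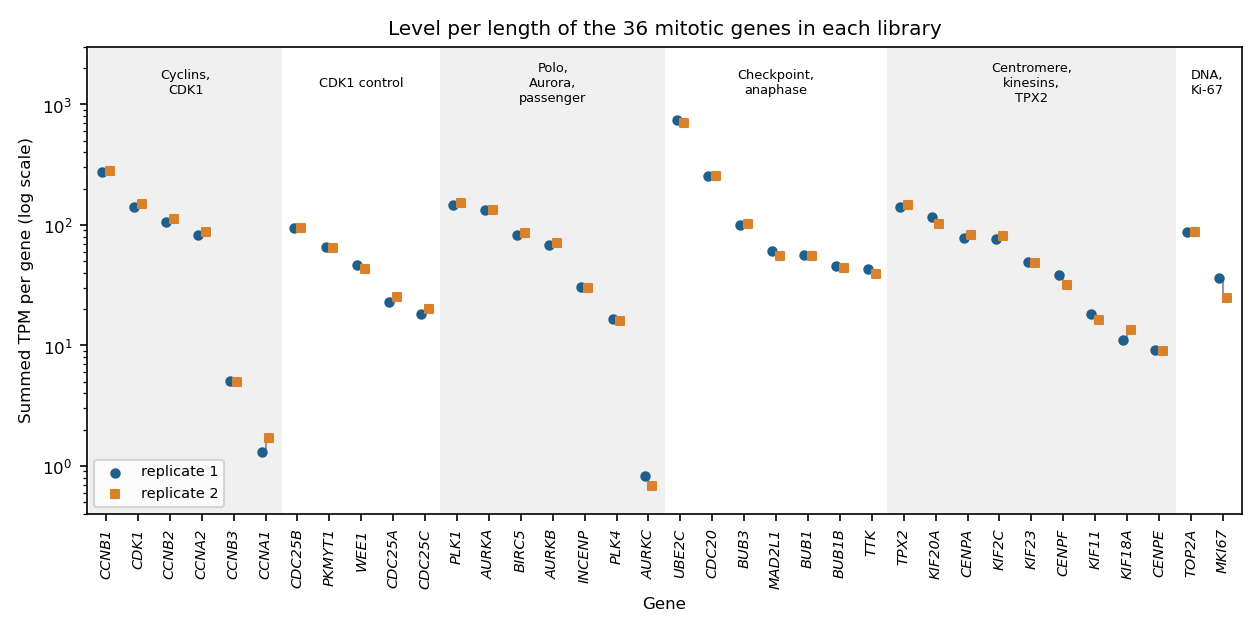
Summed TPM per gene on a log axis for the 36 mitotic genes, grouped by role, with replicate 1 as circles, replicate 2 as squares and a line joining them. UBE2C is highest at 742 and 696 TPM, and CCNB3, CCNA1 and AURKC lie apart at the bottom, at 5.10 TPM or less.

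The libraries were then compared gene by gene. All 36 genes passed the filter on low counts, and 11 differed beyond counting noise (exact binomial test in edgeR, adjusted p under 0.05 over all genes tested), which is 30.6%. The share called over all 15299 genes tested was 13.1%, and among the 2515 genes with a mean between 61.7 and 197 CPM, the central range of the mitotic genes, it was 24.8%. The test compares 2 libraries, not conditions, and its differences have no replicate check. Of the 11 genes, 5 were higher in replicate 2 and 6 were lower. Over all genes tested, 6.78% were called higher and 6.35% lower, and these shares are not matched for level. The list as a whole did not move 1 way: over 35 genes whose mean reached 1 CPM, 19 were higher and 16 lower, and the median log2 difference was 0.015, against -0.0077 over 13898 genes. Differences are log2((CPM + 1)/(CPM + 1)), replicate 2 against replicate 1.

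The genes lower in replicate 2 were led by MKI67, with 234 and 185 CPM, a log2 difference of -0.34 (edgeR exact binomial test, adjusted p of 1.8e-26). CENPF, a kinetochore protein that peaks before mitosis, had 211 and 175 CPM, a difference of -0.27 (edgeR, adjusted p of 1.3e-15). CENPE had 52.1 and 41.4 CPM, a difference of -0.32 (edgeR, adjusted p of 9.6e-06). KIF20A, INCENP and UBE2C were also lower in replicate 2, with differences of -0.16, -0.16 and -0.092. For INCENP the summed TPM was nearly equal, 30.3 and 29.7. By summed TPM, MKI67, CENPF, KIF20A and UBE2C were also lower in replicate 2, while CENPE had 9.14 and 9.03 TPM.

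MKI67, CENPF and CENPE are also the 3 genes of the list with the longest leading protein-coding transcripts, of 11417, 10307 and 8241 bases. Among all 606 genes with such a transcript of at least 8 kb, the median difference was -0.092, 72.1% were lower in replicate 2, and the test called 21.5% lower and 3.14% higher. Among 3866 genes with a leading transcript under 2 kb, the median was 0.0018, and 6.26% were called lower and 9.52% higher. Of the 606 long genes, 6.11% lay as low as MKI67 or lower, 11.7% as low as CENPF and 6.77% as low as CENPE. Length was looked at after the differences were seen, and its part in them was not tested. Without these 3 genes, 8 of 33 were called (24.2%). All 3 were called genes picked after their differences were seen, so the share had to fall, and nothing about length follows from it.

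The genes higher in replicate 2 were KIF18A, WEE1, CDK1, CCNA2 and BUB3. KIF18A had 26.5 and 32.8 CPM, a log2 difference of 0.30 (edgeR exact binomial test, adjusted p of 0.0011). WEE1 had 98.6 and 115 CPM, a difference of 0.22 (edgeR, adjusted p of 8.4e-07), and CDK1 had 156 and 175 CPM, a difference of 0.17 (edgeR, adjusted p of 1.9e-06). CCNA2 had 154 and 169 CPM, a difference of 0.14, and 9.08% of its exonic length overlaps a gene on the opposite strand. By summed TPM, KIF18A, CDK1 and CCNA2 were also higher in replicate 2, while WEE1 was lower, with 46.5 and 43.2 TPM. BUB3, with 150 and 159 CPM, was at the threshold (edgeR exact binomial test, adjusted p of 0.039) and was not called with library totals (0.066) or without the filter on low counts (0.079).

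The 25 genes not called included PLK1, with 227 and 229 CPM, TOP2A, with 395 and 392 CPM, and TPX2, with 387 and 398 CPM. CCNB1 had 310 and 319 CPM, CDC20 had 304 and 297 CPM, and AURKA had 192 and 186 CPM. A p that misses the threshold does not show equal levels. The difference was under 0.1 in size for each of these 6 genes.

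**Figure D3:**
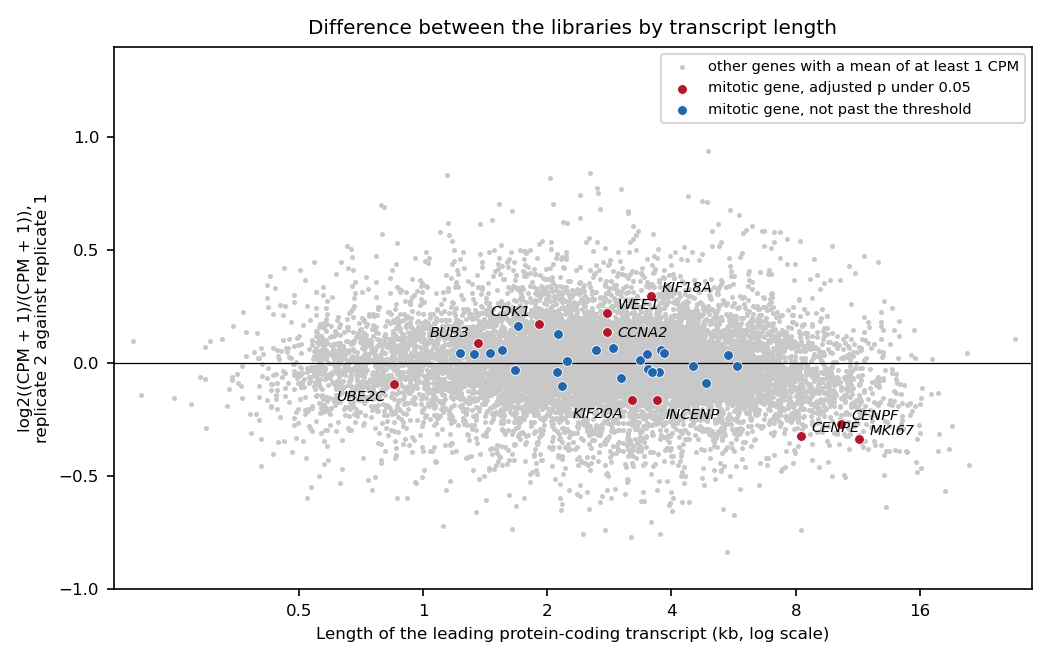
Log2 difference between the libraries (replicate 2 against replicate 1, pseudocount 1) against the length of the leading protein-coding transcript on a log axis, for 35 mitotic genes (coloured) and the other genes whose mean reached 1 CPM (grey). The called genes CENPE, CENPF and MKI67 lie together at the long end, between -0.27 and -0.34, and the other called genes lie on both sides of 0.

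Other genes of mitosis were taken from lists for comparison, and the counts of called genes in them are to be read against the 13.1% called over all genes tested, or the 24.8% in the central range of level of the mitotic genes. All 23 kinetochore genes were detected, from CENPM at 7.83 ± 0.647 CPM to ZWINT at 159 ± 5.20 CPM (SD, n = 2 each), with 2 called higher in replicate 2 and 1 lower. Of 24 genes of the checkpoint and the anaphase-promoting complex, 23 were detected, led by UBE2S at 284 ± 0.524 CPM (SD, n = 2), with 1 called higher and 1 lower. The exception was MAD1L1, with 6 and 1 reads, although the transcript table gave it 73.5 and 63.2 TPM. All 18 genes of chromosome structure and separation were detected, from NCAPH2 at 39.6 ± 1.65 CPM to the cohesin subunit RAD21 at 554 ± 3.46 CPM (SD, n = 2 each), with 1 higher and 2 lower.

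Of 19 spindle and cytokinesis genes, 17 were detected, led by CKAP5 at 404 ± 6.73 CPM (SD, n = 2), and 3 were called higher and 3 lower. NUSAP1 had 1 read in each library against 135 and 121 TPM, and PRC1 had 8 and 2 reads against 84.8 and 84.7 TPM, so the gene table does not hold the level of these genes. Of 16 further kinases, phosphatases and their partners, 15 were detected, led by ENSA at 478 ± 13.4 CPM (SD, n = 2), with 6 called higher and 0 lower (37.5% of 16, against 6.78% called higher over all genes tested). The difference between this list and other genes was not tested. The 6 were ENSA, PPP2R2A, PBK, PLK2, CDK2 and CKS1B. PLK5 was not detected, with 19 and 12 reads.

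The factors known to act on late cell cycle promoters were all detected, 13 of 13. MYBL2 was the highest at 1435 ± 92.8 CPM (SD, n = 2). It was the only gene of these that was called (7.69% of 13, against 13.1% of all genes tested). MYBL2 had 1501 and 1370 CPM (edgeR exact binomial test, log2 difference of -0.13). FOXM1 had 211 and 205 CPM, and the NF-Y subunits NFYA, NFYB and NFYC had 38.8 ± 0.635, 74.9 ± 0.514 and 78.5 ± 1.52 CPM (SD, n = 2 each). LIN37 was the lowest at 1.39 ± 0.388 CPM (SD, n = 2), while the transcript table gave it 28.5 and 25.6 TPM.

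Genes of cell cycle exit were detected in 12 of 12 cases, from CDKN2B at 1.78 ± 0.411 CPM to CCNG1 at 282 ± 21.7 CPM (SD, n = 2 each). Of these, 3 were called higher in replicate 2 and 0 lower (25% of 12, against 6.78% called higher over all genes tested). They were CDKN1A, an inhibitor of cyclin-dependent kinases, with 22.4 and 28.6 CPM, BTG2 with 34.3 and 39.1 CPM, and CCNG1 with 267 and 297 CPM. Whether this list differs from other genes was not tested. Of 12 genes of meiotic division, 3 were detected: CCNB1IP1 at 73.7 ± 2.74 CPM, REC8 at 10.6 ± 0.501 CPM and CPEB1 at 2.92 ± 0.0810 CPM (SD, n = 2 each). MEIKIN, SPO11 and HORMAD1 were at 0 reads, and SMC1B, STAG3, RAD21L1, MOS, FBXO43 and TEX14 were below 1 CPM in both. CCNB3, at 19.0 and 18.9 CPM, was thus detected beside genes of meiosis that were mostly not.

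The transcript table also shows which transcripts make up each level. For 30 of the 36 genes several transcripts were matched and the sum reached 10 TPM in each library. Their leading transcript held a median of 75.3% and 78.1% of the gene's TPM, against 72.3% and 72.5% over 7040 genes compared in the same way. It differed between the libraries in 2 of the 30 genes, CENPF and INCENP, or 6.67%, against 6.9% of the 7040 genes. How many reads lie behind each transcript is unknown, and no interval can be given.

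In most genes 1 protein-coding transcript led in both libraries. TOP2A-201 held 99.2% and 97.5% of TOP2A, CDC20-201 held 93.8% and 94.7% of CDC20, PLK1-201 held 94.9% and 91.9% of PLK1, and CDK1-203 held 92.2% and 92.9% of CDK1. CCNB1 was divided between CCNB1-204, of 1331 bases, with 57.8% and 57.1%, and CCNB1-201, of 2169 bases, with 37.1% and 37.3%. KIF23 was divided between KIF23-202, with 66.96% and 70.3%, and the longer KIF23-215, with 16.9% and 18.5%. BIRC5-202 held 76.1% and 77.9% of BIRC5. AURKA was divided over 13 transcripts, and its leading transcript AURKA-208 held 37.3% in replicate 1 and 51.7% in replicate 2. CDC25A-201 moved the other way, from 69.8% to 56.1%.

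Transcripts that GENCODE 29 does not annotate as protein coding held a median of 3.85% and 3.43% of TPM in the 30 genes, against 4.47% and 4.16% in 6932 protein-coding genes. MAD2L1 stood far above, with 81.7% and 80.3%. Its leading transcript, MAD2L1-202 of 1277 bases, is annotated as a target of nonsense-mediated decay and held 74.0% and 80.3%. The protein-coding MAD2L1-201 of 5468 bases held 18.3% and 19.7%. TPM is scaled for length, so these are not shares of reads, and whether this RNA is degraded was not measured. In CENPF, the short CENPF-204 of 734 bases held 48.8% and 46.1%, and the full-length CENPF-201 of 10307 bases held 47.6% and 49.5%. In MKI67, the short MKI67-203 of 692 bases held 35.1% and 23.6%. The level of the full-length MKI67-201 was 18.8 and 14.2 TPM, lower in replicate 2 as the reads were. Short transcripts thus make up a large part of the summed TPM of CENPF and MKI67. In WEE1, the retained-intron transcript WEE1-208 held 15.6% in replicate 1 and 1.52% in replicate 2. WEE1-202, the leading coding transcript, was at 33.3 and 33.0 TPM, and the coding WEE1-204 of 573 bases at 0 and 4.86 TPM. In CENPE, which was not among the 30 genes, transcripts not annotated as protein coding held 13.4% and 33.8%. Its coding CENPE-202 was at 4.37 and 4.62 TPM and CENPE-201 at 3.54 and 1.36 TPM. In INCENP, transcripts not annotated as protein coding held 19.3% and 25.8%. INCENP-202 was at 12.9 and 10.2 TPM and INCENP-201 at 11.6 and 11.9 TPM.

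**Figure D4:**
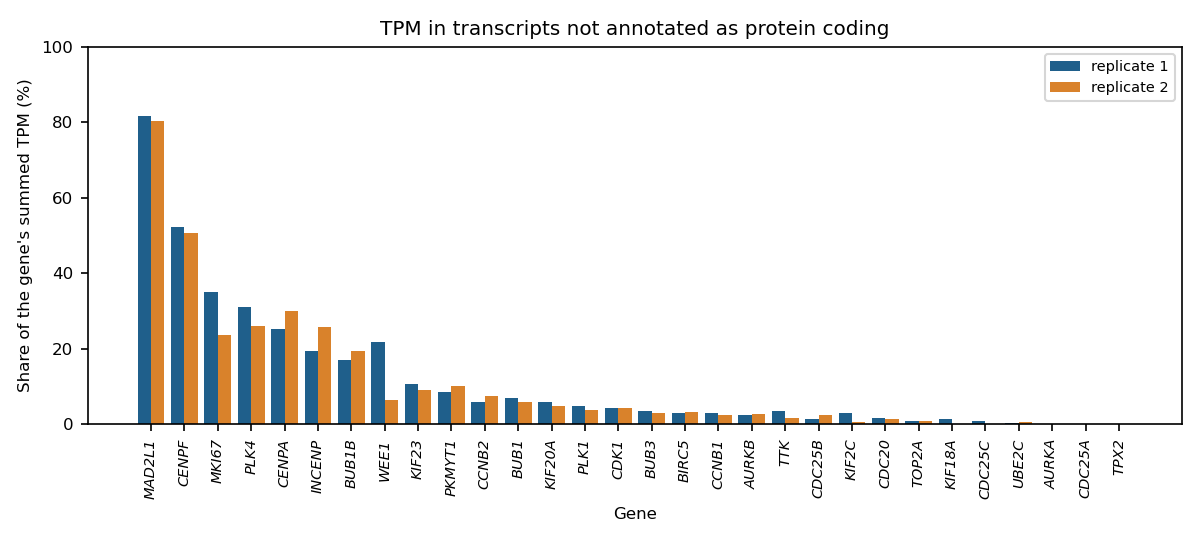
Share of each gene's summed TPM, in percent, held by transcripts that are not annotated as protein coding, for the 30 mitotic genes compared, with 1 bar per library. MAD2L1 is at 81.7% and 80.3% and CENPF at 52.4% and 50.5%, while most of the other genes lie below 10%.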

How the data were processed

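Polyadenylated RNA of 2 libraries of 1 group was analysed. Trim Galore 0.6.10, STAR 2.7.11a, Salmon 1.10.2, DESeq2 and GRCh38 are named, with no role, per the submitters' processing notes. The counting of reads, its strand setting and the annotation release are not given in the sources used here. The deposited transcript table holds TPM for 251955 transcripts. The gene table carries CPM in its name, yet its values are a scaled signal as deposited: each library's read counts were scaled by 1 factor, and 100% of values above 0 were whole multiples (within 0.01) of what 1 read is worth, from which whole reads were recovered. The headers name the libraries but not the identifier column, and the 2 names were taken in order for the 2 value columns. Every direction given between replicates 1 and 2 rests on this reading. Of columns with values per sample, 0 were left unused.

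CPM is reads scaled to each library's total in genes. Transcripts were joined to genes through GENCODE release 29 on GRCh38 by identifier without version, which matched 201667 transcripts and 94.8% of TPM in each library, and TPM was then summed per gene. All 36 genes were found in both tables. To ask which genes differed by more than counting noise, each gene was tested with edgeR's exact binomial test (binomTest of version 4.0.16, two-sided, TMM, filterByExpr, Benjamini-Hochberg adjustment over all genes tested, threshold 0.05) and the calculation was tested on simulated data. The DESeq2 alternative used version 1.42.0. Intervals are 95% Wilson intervals and cover counting error only, since reads carry no molecular identifiers. Each gene was named by being on the list of 36, and each other list by its highest, lowest and undetected genes. Further genes of those other lists, such as called genes, FOXM1 and the NF-Y subunits, were named after their values were seen. The members and lists were chosen with earlier results of these data known.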

Additional observations from a re-analysis of the deposited data

How the results depend on the processing

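No paired analysis was possible because all samples belong to 1 group. Detection, the median level, the genes beyond counting noise and the count of promoters with a CHR match stayed within 1.5 times or 1 SD of the reported value under each alternative tried for them. With 2 libraries, leaving 1 out can hardly move the median level by more than 1 SD, so that check could hardly fail. The 10 called genes other than BUB3 were called under every normalization and filter tried, while BUB3 (adjusted p of 0.039, edgeR exact binomial test) reached 0.066 with library totals and 0.079 without a filter. The median difference of the 35 genes, 0.015, became -0.012 with summed TPM, where the median of all genes was -0.011. The cause was not tested. With CPM per kb of merged exons in place of TPM, the ratios became 74.2 for CCNA2 to CCNA1, 3.06 for CCNB1 to CCNB2, 35.1 for CCNB1 to CCNB3, 2.14 for CCNB1 to CCNA2, 2.53 for AURKA to AURKB, 203 for AURKA to AURKC, 3.24 for CDC25B to CDC25A, 6.34 for CDC25B to CDC25C and 6.27 for PLK1 to PLK4. Every ratio kept its direction, and merged exons count sequence that the expressed transcripts lack. A different leading transcript was found in 3 of 33 genes when 1 summed TPM was required, with CCNA1 added, against 11.7% of all genes compared. With 50 summed TPM required, where fewer genes are compared, it was found in 0 of 19, against 4.39%. Over protein-coding transcripts alone it was found in 1 of 27, against 5.18%. This last setting was chosen after the data were seen. Reads against the number predicted from TPM gave a median log2 ratio that ranged from 0.13 without replicate 1 to 0.14 without replicate 2. Depth limits AURKC and CCNA1, whose intervals span over 1.5-fold in each library. The depth per transcript is unknown.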
